A study of Gasterosteus aculeatus with 29 samples.

Results

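In the whole brain of three-spined stickleback (Gasterosteus aculeatus), 100 of 16593 genes were chosen as those whose level stood apart after a single cue of predation risk, whether the father's or the fish's own, while fish with both cues lay back towards fish with neither. The genes were chosen by these measured levels. Pooled t values were computed for paternal only and for personal only, each against neither and against both. Genes with all 4 t of one sign were kept, and the 100 with the largest smallest absolute t were taken. Of the 100 genes, 34 were higher with 1 exposure and 66 were lower. Every difference among the 4 groups given below was therefore used in the choice and is a description of what was chosen.

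Male sticklebacks tend their eggs and fry alone, so a father that meets a predator during care is a source of information for his brood. A young fish can also meet predators itself. Cues from parent and own experience are additive on a log scale when each shifts a gene by the same amount with or without the other. They are nonadditive when the shift depends on the other cue. The genes here were chosen for group means of that shape, which does not by itself show that their shifts fail to sum. The files used here do not pair the Ensembl stickleback identifiers with gene symbols, and the reference table matched 0 of them, so no gene is given a name or a role.

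The study crossed the exposure of 10 fathers to predation risk during care (5 exposed, 5 unexposed) with exposure of their offspring as juveniles. Values are log2 CPM, which is the log2 of counts per unit of a scaled library size, from poly-A RNA of individual fish. The groups were neither (father unexposed, fish unexposed, 4 libraries of 3 fathers), paternal only (father exposed, fish unexposed, 8 libraries of 5 fathers; the labels' protocol speaks of 9, and the other is not analysed here), personal only (father unexposed, fish exposed, 9 libraries of 5 fathers) and both (father exposed, fish exposed, 6 libraries of 4 fathers). Replicates were single fish. Siblings share a father, and each father belongs to 1 paternal exposure, so p-values measure the spread between fish of these few families. The fish were 16 females and 11 males by their labels: 2 and 2 in neither, 5 and 3 in paternal only, 5 and 4 in personal only, and 4 and 2 in both. The labels used here give no strain and no age beyond exposure as juveniles. The tissue could not be checked against brain markers without symbols. In a whole brain, fewer cells of a type and less RNA per cell cannot be told apart.

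Another 2 libraries were left out by the rule that chose the genes. Neither replicate 3 stood apart: the interquartile range of its gene-wise log2 differences from the median library was 1.52, against 0.248 to 0.479 in the rest. Both replicate 7, labelled male, went against its sex label in genes that differ between the sexes when the same table was examined earlier. The 27 libraries held 2244609 to 55155451 reads, with a median of 7298959 in neither, 5291187 in paternal only, 6015286 in personal only and 11140375 in both. A fit with depth as a term is given in the last section.

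The gene of highest rank, higher with 1 exposure, was ENSGACG00000001433. Its level in the neither fish was 5.31, 5.33, 5.22 and 5.42 log2 CPM. It ranged 5.31 to 5.58 (median 5.52) among paternal only fish, 5.22 to 5.76 (median 5.55) among personal only fish and 4.72 to 5.67 (median 5.26) among both fish. The single-exposure fish were mostly the high ones, yet the groups overlapped: 3 of 17 lay above every fish of neither and both, and the lowest value, like 1 of the higher ones, belonged to a both fish. ENSGACG00000008574, rank 3, had 3.51, 3.09, 3.39 and 3.31 log2 CPM in neither. Paternal only fish had 3.41 to 3.97 (median 3.49), personal only fish 3.30 to 3.83 (median 3.59) and both fish 2.99 to 3.45 (median 3.29). Here 9 of 17 single-exposure fish lay above every other fish, and 4 of the 10 fish of neither and both lay below every single-exposure fish.

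Among genes lower with 1 exposure, ENSGACG00000006851 (rank 2) led. Neither fish had 2.66, 2.82, 3.02 and 2.83 log2 CPM. Paternal only fish ranged from 1.83 to 3.04 (median 2.33), personal only fish from 2.07 to 2.71 (median 2.54) and both fish from 2.35 to 3.06 (median 2.79). The paternal only fish were spread most widely, and one of them, replicate 5, lay above every neither fish. ENSGACG00000019915, rank 7, had 4.21, 4.27, 4.43 and 4.38 log2 CPM in neither. Its range was 4.05 to 4.28 (median 4.16) for paternal only, 3.87 to 4.41 (median 4.05) for personal only and 4.00 to 4.55 (median 4.27) for both. Its groups overlapped over most of their range, and 3 of 17 single-exposure fish lay below every fish of neither and both.

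**Figure D1:**
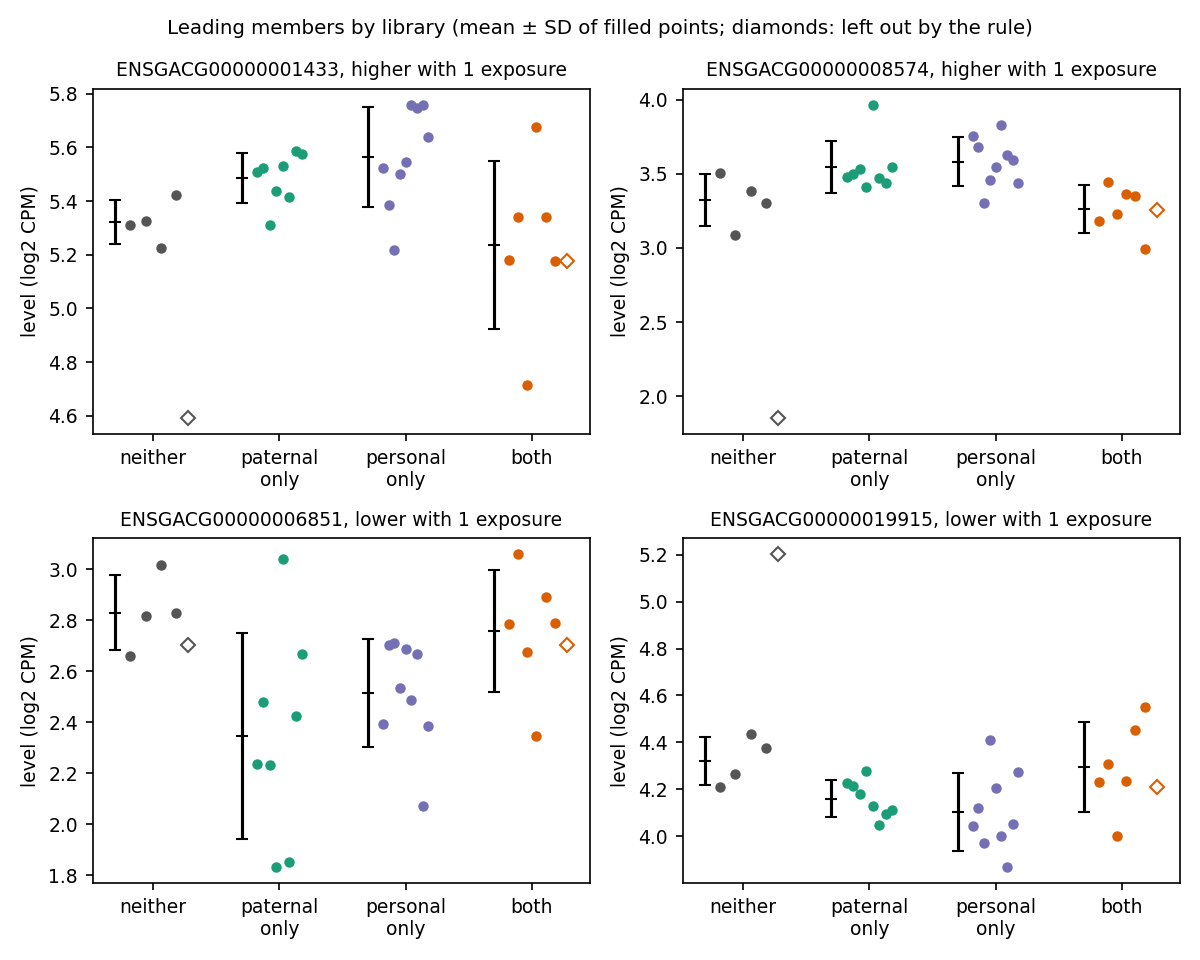
Level (log2 CPM) of the 2 leading genes in each direction by group, 1 point per fish; black bars are the mean ± SD of the filled points and open diamonds are the libraries left out by the rule. In ENSGACG00000008574 9 of 17 single-exposure fish lie above all others, and in each of the 4 genes the groups overlap.

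Differences among the 100 genes were small. In the 34 higher genes the single-exposure mean (that of paternal only and personal only) exceeded the mean of neither and both by 0.10 to 3.43 on the log2 scale, with a median of 0.27 (1.21-fold). In the 66 lower genes it was -0.73 to -0.08, with a median of -0.21 (0.867-fold). Over all 16593 genes the absolute value of this difference had a median of 0.068. It was under 0.25 in 54 of the 100 genes and reached 1 in 2.

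The pair past 1 were both genes with few reads. ENSGACG00000015268, rank 4, had 1.26, -0.60, 0.08 and -0.31 log2 CPM in neither. It ranged 0.45 to 2.24 (median 1.18) among paternal only fish, -0.99 to 2.01 (median 1.56) among personal only fish and -0.08 to 1.07 (median 0.22) among both fish, from 5 to 284 reads. Of the single-exposure fish 11 of 17 lay above every other fish, and the lowest of all was a personal only fish. ENSGACG00000015145, rank 71, had 0, 3, 2 and 0 reads in the 4 neither fish. Its counts were 0 to 69 among paternal only fish, 1 to 119 among personal only fish and 0 to 22 among both fish, so its difference of 3.43 depends on the prior of 0.25 reads given to 0. High and absent fish occurred among siblings of one group, as in father M42, whose paternal only fish had 0 and 41 reads.

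Beyond its filter the rule did not use the level. The genes' mean level ran from -1.90 to 7.61 log2 CPM with a median of 3.26, against a median of 3.54 over all genes. At least 1 library had under 10 reads in 16 of the 100 genes, and in 17.1% of all genes. The most abundant genes lower with 1 exposure were ENSGACG00000015475 and ENSGACG00000005236. ENSGACG00000005236 had 7.57, 7.53, 7.49 and 7.48 log2 CPM in neither. Its range was 6.98 to 7.73 among paternal only fish, 7.15 to 7.46 (median 7.30) among personal only fish and 7.31 to 7.86 (median 7.51) among both fish. All 9 personal only fish lay below all 4 neither fish in this gene, while 2 paternal only fish, both sons of father M11, lay above them. ENSGACG00000015475 averaged 7.74 ± 0.078 log2 CPM (SD, n = 4) in neither and 7.68 ± 0.17 (n = 6) in both. Its single-exposure means were 7.55 ± 0.18 (n = 8, paternal only) and 7.54 ± 0.21 (n = 9, personal only). The most abundant genes higher with 1 exposure, ENSGACG00000017768 and ENSGACG00000018552, differed in spread: the SD over both fish was 0.81 log2 CPM in the former and 0.11 in the latter.

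No gene separated the 17 single-exposure fish from the 10 others completely, among the 100 or among all genes (0.0%). The single-exposure fish did not overlap neither in 1 of the 100 genes (0.0482% of all genes) and overlapped both in every one (background 0.0%). At the edge of the choice, the last gene taken had a smallest absolute t of 1.255 and the first gene not taken 1.254. Of the 16593 genes, 4275 (25.8%) had all 4 t of one sign, 1999 of them higher and 2276 lower with 1 exposure.

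In the limma fit over all genes, with sex as a term and father as a random block, the interaction (both minus personal only, less paternal only minus neither) gave no adjusted p under 0.05 among the 100 genes or among all genes (0.0%). At an unadjusted p under 0.05 were 617 genes (3.72%), of which 90 belonged to the 100. The rule chose on the same group means, so this count says nothing further about these genes. The interaction was -0.45 ± 0.14 (SE) for ENSGACG00000001433, -0.54 ± 0.13 for ENSGACG00000008574, 0.74 ± 0.21 for ENSGACG00000006851 and 0.34 ± 0.11 for ENSGACG00000019915 (adjusted p = 0.999 for each in limma). Limma-voom on recovered reads called 2 genes (0.0121%), both among the 100. ENSGACG00000015268 had -2.70 ± 0.48 and ENSGACG00000013782, rank 80, 1.62 ± 0.28 (limma-voom, adjusted p = 0.0494). The latter was picked out because of this call. In the main test the values were -1.81 ± 0.51 and 0.94 ± 0.36 (adjusted p = 0.999), and in no other fit was the adjusted p of either below 0.459. ENSGACG00000013782 had 0.98 to 1.59 log2 CPM among neither fish and 0.92 to 1.83 among both fish. Paternal only fish had 0.0049 to 1.91 and personal only fish 0.17 to 1.38, with 9 to 336 reads over the 4 groups.

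Averaged over the 34 higher genes, each fish's difference from the mean of the 27 libraries was -0.42 to -0.20 log2 for neither fish and -0.37 to -0.10 for both fish. It was -0.07 to 0.30 for paternal only fish and -0.09 to 0.39 for personal only fish. Over the 66 lower genes it was 0.13 to 0.22 for neither fish and 0.06 to 0.29 for both fish, against -0.23 to -0.01 for paternal only fish and -0.22 to 0.03 for personal only fish. All fish of neither and both were on 1 side of 0, as the choice makes likely. Paternal only replicate 5 and personal only replicates 2, 4 and 5 were the single-exposure fish with averages below 0 in the higher genes. Personal only replicate 5 was also above 0 in the lower genes.

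**Figure D2:**
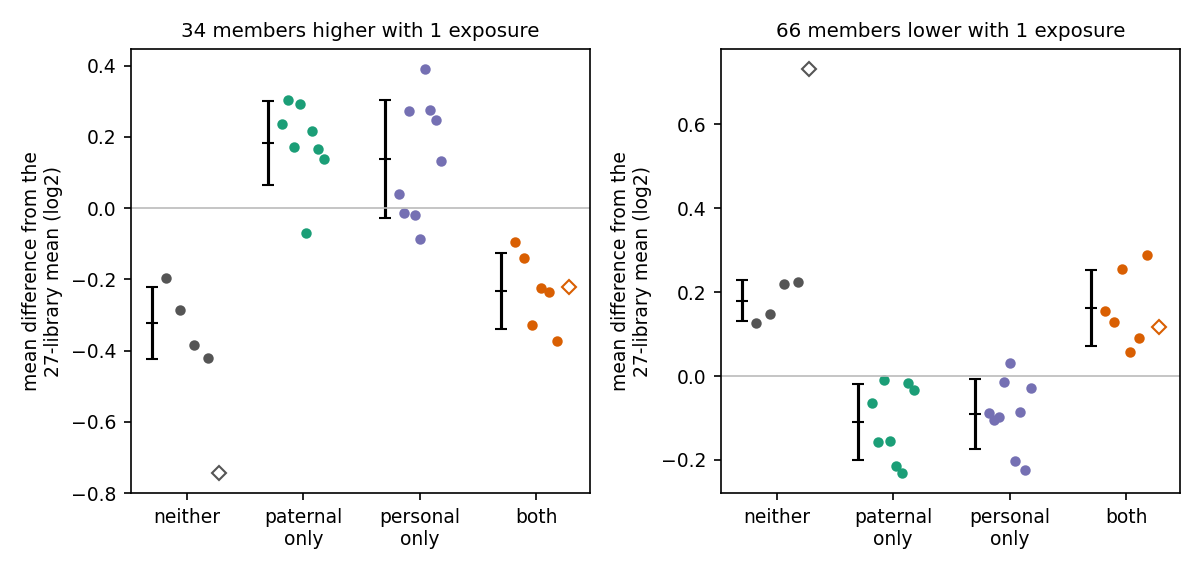
Mean difference from the 27-library mean (log2) over the 34 higher genes and over the 66 lower genes, 1 point per fish by group; black bars are mean ± SD and open diamonds the libraries left out by the rule. Both fish span -0.37 to -0.10 in the higher genes; neither replicate 3 lies at -0.74 and both replicate 7 at -0.22.

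How far the changes cancel was read from both minus neither. The neither fish were on sequencing lanes 5, 6, 7 and 8 and the both fish on lanes 4, 5 and 6, so group and lane partly coincide. A fit with lane as a term had 0 calls over all genes. Fish with both exposures were above neither in 54 of the 100 genes and below in 46. The absolute group difference had a median of 0.052 log2, against 0.157 over all genes. Ranking by the smallest of 4 t values favours genes with neither close to both, so the smaller median was built in. In limma 0 of the 100 genes were called, where 3 of all genes were (0.0181%). Limma-voom called 0 of the 100 (0.0904% of all genes), and the fit with all 29 libraries called 0 of the 100 as well (0.012%). At an unadjusted p under 0.05 the counts were 0 of 100 and 10.7% of all genes.

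These intervals were too wide to place both at the level of neither. The 95% interval of both minus neither had a median width of 0.63 log2, and in all 100 genes it included 0 and also reached past the gene's single-exposure difference from the mean of neither and both. ENSGACG00000006175 had 1.77 ± 0.35 log2 CPM in neither (SD, n = 4) and 2.03 ± 0.24 in both (n = 6), a fitted difference of 0.21, adjusted for sex, with a 95% interval of -0.10 to 0.52. ENSGACG00000012624 differed by 0.27 (-0.18 to 0.72). On the other side, ENSGACG00000012668 had 2.07, 1.55, 1.83 and 1.54 log2 CPM in neither and 1.33 to 1.60 in both, a difference of -0.25 (-0.57 to 0.07). Its single-exposure means were 1.32 and 1.29, so the mean of its both fish lay between those of the single exposures and of neither. ENSGACG00000016177 differed by -0.28 (-0.68 to 0.11).

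**Figure D3:**
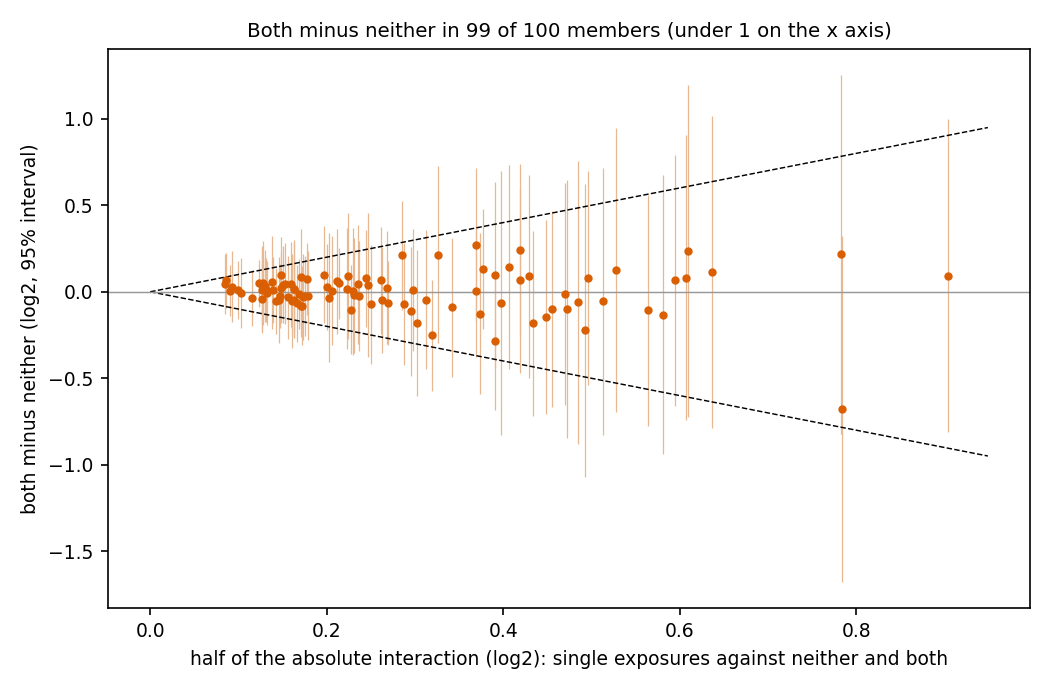
Both minus neither (log2, with its 95% interval) against the fitted single-exposure difference from the mean of neither and both (log2) for 99 of the 100 genes, 1 point per gene; ENSGACG00000015145 lies outside the axes. Dashed lines mark equal size; every interval includes 0 and reaches past a dashed line.

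The single exposures were also compared with each other. Ranking by the smallest of 4 t values favours genes in which these 2 groups lie close. Low counts for their difference were therefore partly built in and do not show that the 2 cues act alike. In the direction of the choice, paternal only lay further out in 57 of the 100 genes and personal only in the rest. Limma called 0 of the 100 genes and 0 of all genes (0.0%) for paternal only minus personal only, with 0 of 100 and 571 of all genes (3.44%) at an unadjusted p under 0.05, and limma-voom called 2 genes, none among the 100. ENSGACG00000015635 had 3.24 ± 0.24 log2 CPM in paternal only and 3.02 ± 0.19 in personal only, a fitted difference of 0.24 with a 95% interval of -0.03 to 0.51. ENSGACG00000016490 had -0.13 ± 0.43 and 0.22 ± 0.45, a difference of -0.35 (-0.87 to 0.16). For ENSGACG00000006851 the difference was -0.17 (-0.47 to 0.12), and for ENSGACG00000015145, with few reads, 1.37 (-1.40 to 4.14). The median width of these intervals was 0.48 log2.

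Siblings of 1 father in both of his conditions were available for 7 fathers. Within the 4 exposed fathers the direction of the choice (paternal only against both) was seen in 84 of the 100 genes for M11, 82 for M15, 87 for M42 and 71 for M43. Within the 3 unexposed fathers (personal only against neither) it was seen in 80 for M20, 87 for M33 and 86 for M8. Over all genes, each signed by paternal only minus neither alone, the share was 48.54% to 61.72%. The direction held within all 7 fathers in 23 of the 100 genes, in 216 of all genes (1.30%) and in 3.51% of the genes with all 4 t of one sign. These fish entered the choice, which favours such counts, and each comparison rests on 3 fish. For M11 and M20 the single-exposure fish were all male and the fish of the other condition female. For M15 and M8 it was the reverse. Exposure and sex cannot be told apart within those fathers.

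The libraries left out by the rule give values that it did not use. Both replicate 7 (19835515 reads, father M11) lay on the side of neither and both, measured from the mean of the 27 libraries, in 77 of the 100 genes. Over all genes, signed by the same contrast, the count was 10003 (60.3%), and among the 4275 genes of one sign 2675 (62.6%). Its count was 27 of the 34 higher genes and 50 of the 66 lower genes, at a median distance of 0.14 log2. In ENSGACG00000001433 it had 5.18 log2 CPM and in ENSGACG00000008574 3.26, in both cases within the range of the other both fish. In the genes that limma-voom called for the interaction it lay below all other both fish. With -0.33 log2 CPM of ENSGACG00000015268 this was away from the single exposures. With 0.71 of ENSGACG00000013782, against 0.92 to 1.83, it was towards them. Neither replicate 3 lay on the side of neither and both in 81 of the 100 genes, in 11214 of all genes (67.6%) and in 2940 of the 4275 (68.8%). Its distances were larger, with a median of 0.83 log2, and its whole profile stood apart. It had 1.85 log2 CPM of ENSGACG00000008574, where no other library was below 2.99. With genes chosen again without fish of the same father, both replicate 7 lay on that side in 71 of 100, against 59.8% of the genes of one sign in that round. Neither replicate 3 did so in 71 of 100, against 65.2%. They are 1 fish a group, by their labels siblings of fish that were used, and genes within a library are not independent. Since both replicate 7 went against its sex label, its group and father labels are also less sure.

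The same question was put to each of the 27 libraries by choosing 100 genes again without it. The left-out library then lay on the side of its own group in 26 to 63 of the 100 genes chosen without it, with a median of 49. The count was above 50 in 12 of the 27 libraries: 3 of 4 in neither, 4 of 8 in paternal only, 3 of 9 in personal only and 2 of 6 in both. Among all genes of one sign in the same rounds, the share on the own side was 33.9% to 58.5%, with a median of 49.3%, and the chosen genes exceeded it in 12 of the 27 libraries. With all fish of a father left out together, the median was 48 of 100 and the range 27 to 65. The share among all genes of one sign was then 34.7% to 58.3%, with a median of 49.4%, and the chosen genes exceeded it in 12 of the 27 libraries. In these rounds the left-out fish thus did not, on balance, fall on the side of their group more often than on the other. Both libraries that the rule leaves out did, in the chosen genes and also over all genes. Both replicate 2 had the lowest count, 26, and personal only replicate 8 the highest, 63.

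**Figure D4:**
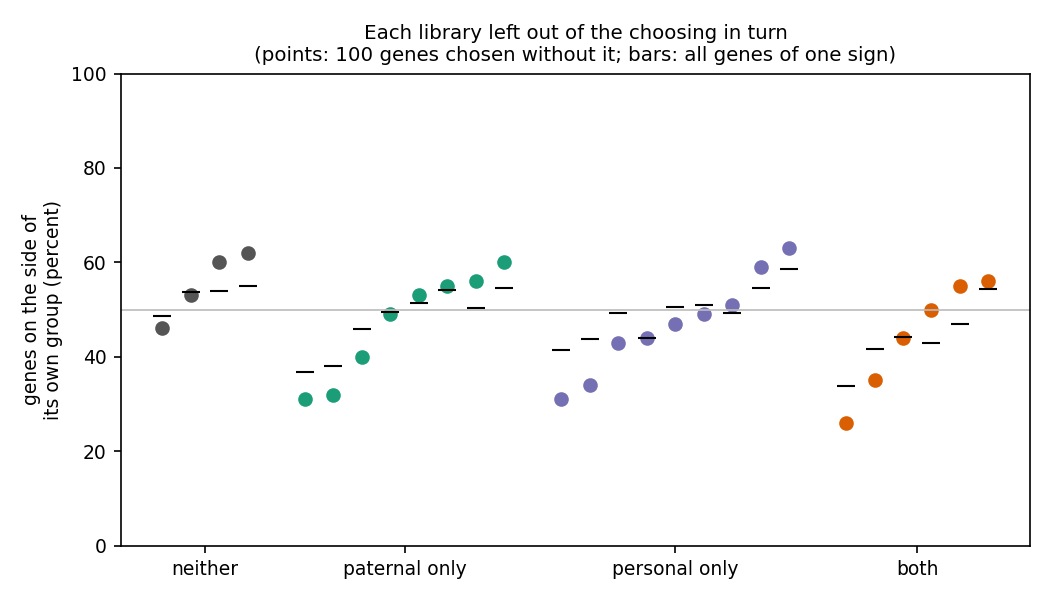
Percent of the 100 genes chosen without a library in which that library lay on the side of its own group, 1 point per library, sorted within its group; black bars give the share among all genes of one sign in that round. The points run from 26 to 63 and lie on both sides of 50 in every group.

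The list itself depended on single fish. Without 1 library the rule chose 55 to 85 of the 100 genes again (median 79), lowest without both replicate 2. Without 1 father it chose 36 to 71 again, lowest without M43 and M33. Only 12 genes were chosen in all 27 rounds without 1 library, and 4 of these also in all 10 rounds without 1 father: ENSGACG00000001433, ENSGACG00000006851, ENSGACG00000008574 and ENSGACG00000015268, which are ranks 1 to 4. With 1 value per father and condition 51 of the 100 were chosen again, and with all 29 libraries 61.

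Sex was not a term of the rule. A sex difference, however, widens the spread within groups of mixed sex and so lowers the t values. The choice therefore disfavours genes that differ by sex, and low counts for sex are partly built in. Limma called 0 of the 100 genes for sex, where 609 of all genes were called (3.67%), and 0 of the 100 with all 29 libraries (3.15% of all genes). The fit with all 29 libraries counts both replicate 7 as male, the label it went against. It also includes neither replicate 3, which stood apart. In the main test, 7 of the 100 and 13.0% of all genes had an unadjusted p under 0.05. Females were above males in 48 of the 100 genes, and the median absolute difference was 0.054 log2, against 0.086 over all genes. ENSGACG00000015268 was higher in females by 0.68 ± 0.25 (adjusted p = 0.189, limma), with 1.20 ± 0.76 log2 CPM (SD, n = 16) against 0.50 ± 0.89 (n = 11 males). ENSGACG00000001055, rank 6, had a difference of 0.62 ± 0.28 (adjusted p = 0.327, limma). ENSGACG00000004873 had 3.16 ± 0.45 log2 CPM in females and 3.62 ± 0.36 in males, a difference of -0.40 ± 0.14 (adjusted p = 0.168, limma). ENSGACG00000011988 differed by -0.10 ± 0.038 (adjusted p = 0.20, limma). Limma-voom called ENSGACG00000004873, at -0.55 ± 0.13 (adjusted p = 0.00967), and ENSGACG00000017063, at 0.94 ± 0.27 (adjusted p = 0.0321), among 1102 genes called (6.64%). ENSGACG00000017063 was picked out because of this call.

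Whether the interaction differed between females and males was not used by the rule either. Limma called 0 of the 100 genes and 0 of all genes (0.0%), and limma-voom likewise. With no adjustment, 6 of the 100 genes and 3.77% of all genes had p under 0.05 in limma. The interaction had the direction of the choice in 100 of the 100 genes among females and 99 among males, which the pooled choice favours. The group means of all 4 differences had it in 95 genes among females (23.8% of all genes) and 80 among males (22.6%). For the shares of all genes, the direction was the sign of paternal only minus neither in the pooled sexes. The same fish made the choice. All 4 pooled differences had one sign in each of the 100 genes, but in 25.8% of all genes. The counts of 95 and 80 were therefore favoured by the choice and do not show agreement between the sexes.

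The genes below were picked out in each direction by the smallest p for the difference in interaction between the sexes. None of them was called, so their values are a description of extremes. ENSGACG00000006175 had means of 1.56 and 1.77 log2 CPM in neither and both males (n = 2 each), below 2.33 in 3 paternal only males and 2.22 in 4 personal only males. Among females the 4 means lay between 1.98 and 2.20. The interaction was -0.11 ± 0.22 in females and -1.21 ± 0.26 in males (adjusted p of the difference = 0.996, limma). ENSGACG00000016177 had means of 4.08 log2 CPM in 2 neither females and 3.62 in 4 both females, above 3.16 and 3.19 in the single exposures (5 females each). Its male means lay between 3.21 and 3.47, and the interaction in females minus that in males was 1.21 ± 0.45. ENSGACG00000015199 had a difference of -0.58 ± 0.24, with an interaction of -0.01 ± 0.18 in males, and ENSGACG00000020564 one of -0.89 ± 0.43 (adjusted p = 0.996 for each, limma).

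**Figure D5:**
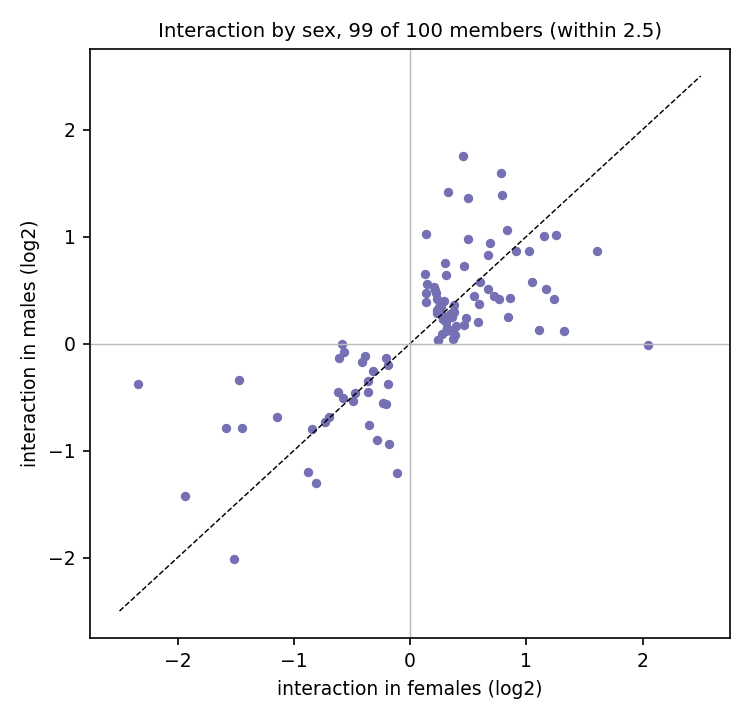
Interaction (log2) in males against that in females for 99 of the 100 genes, 1 point per gene; ENSGACG00000015145 lies outside the axes and the dashed line marks equal values. The points lie in the quadrants where the sexes share a sign, apart from 1 gene just below 0 in males, and scatter on both sides of the dashed line.

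Deviations of fish from their group means, which the group differences do not fix, were compared between genes as a description over the 27 libraries. The genes of a library share its depth, lane, sex and father, which differed between libraries. Their part in r was not tested. Pairs of the 34 higher genes had a median r of 0.07, pairs of the 66 lower genes 0.09, and pairs of a higher with a lower gene -0.07, against -0.002 for all pairs of genes. The closest pair, ENSGACG00000016682 and ENSGACG00000004437, had an r of 0.82. Of the 4950 pairs, 40 (0.808%) had an absolute r of at least 0.6, against 1.86% of all pairs of genes. The choice disfavours genes with a wide spread within groups, such as a sex difference gives, so the lower share may be partly built in. The genes as a group varied only weakly together from fish to fish. The closest pair was picked out by its r.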

How the data were processed

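Whole-brain RNA of 29 fish was sequenced as poly-A-enriched single-end libraries, per the labels' protocols. The authors deposited 1 table of log2 CPM values for 17730 genes. The submitters' processing notes name TopHat2 2.0.8 and HTSeq 0.6.1, and also CASAVA 1.8.2 and edgeR. The genome build that those notes name is one of mouse, although the gene identifiers are of stickleback. That entry was set aside, so the build behind the counts is unknown. Whether counting used strand is unknown as well. Overlapping genes and near-identical paralogs are therefore uncertain. The lowest deposited log2 value, -6.77, equals 0 reads plus a prior of 0.25 reads. Above it, values rose in whole steps, and 100% gave whole reads within 0.01, from 2244609 to 55155451 per library. Read counts cover counting error only.

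A gene was tested if its log2 CPM exceeded 0 in 5 or more of 27 libraries. Deposited values were fitted with limma-trend in R 4.3.3 (limma version 3.58.1; statmod version 1.5.0), with group means, sex and father as a random block (consensus correlation 0.168), and Benjamini-Hochberg adjustment over 16593 genes at a threshold of 0.05. Limma-voom used the recovered reads. The labels give no replicate numbers, and libraries were numbered within a group in deposition order. Siblings of 1 father are not independent, and the labels do not say whether fish were kept in separate tanks. The fits and the rule were run on simulated data as a check of the code. Those data had no family effects, and the shifts planted for the rule were larger than most differences given here. They do not show how well differences of the present size are found.

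The members, the comparisons and the naming rule were chosen with earlier results of these data known. Without symbols, the rule names at most 2 identifiers in each direction per description: highest rank, smallest p, or highest mean level. Marker lists were not tested, since no identifier could be paired with a symbol. The fit with depth and the choosing without each library were added after seeing the data.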

Additional observations from a re-analysis of the deposited data

Results flagged for a closer look

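For 21 named genes and the averages over the chosen genes, 96 sets of 4 to 9 fish were searched for a fish set apart from its group by a wide gap. Chance picks out about 1 set in 20, and 7 values were found. Paternal only replicate 5, a male of father M42, accounted for 3 of them. It had 3.97 log2 CPM of ENSGACG00000008574 against 3.41 to 3.55 in the other paternal only fish. It had 4.04 of ENSGACG00000015199 against 4.28 to 4.42, and an average over the 34 higher genes of -0.0701 against 0.14 to 0.30. Personal only replicate 5, a male of father M33, had -0.99 log2 CPM of ENSGACG00000015268, from 5 reads, against 0.75 to 2.01, and 4.10 of ENSGACG00000015199 against 4.29 to 4.41. Neither replicate 1 had 3.82 of ENSGACG00000015199 against 4.15 to 4.21. Both replicate 1 had 2.85 of ENSGACG00000016177 against 3.48 to 3.81.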

How the results depend on the processing

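The neither group has 4 fish of 3 fathers, which limits every comparison with it. Limma-voom gave 2 calls for the interaction, 15 for both minus neither, 2 for paternal only minus personal only and 1102 for sex, against 0, 3, 0 and 609 in the main test. Both minus neither had 0 calls with 1 value per father and personal condition, 0 with lane as a term, 6 with no replicate block for father, and 0 to 1 without 1 neither fish. Adding log10 of reads as a term gave 0 calls for the interaction, 3 for both minus neither, 0 for paternal only minus personal only and 635 for sex. In the 100 genes, chosen on these group means, the median absolute interaction was then 0.453 log2, against 0.460 in the main test. Without the replicate block the interaction had 0 calls, paternal only minus personal only 0 and sex 613. The cause was not tested. The rule chose again 61 of the 100 genes with all 29 libraries, 51 with 1 value per father and condition, and 55 to 85 without 1 library. Without 1 father it chose 52 (M11), 42 (M15), 59 (M20), 37 (M33), 52 (M42), 36 (M43) and 60 (M8) again, and 68 to 71 without M31, M41 or M9. Of the values recomputed for genes named by the rule, 308 kept direction and side of the threshold and 1 did not, ENSGACG00000004873 for sex in limma-voom, at -0.55. Limma-voom also carried past the threshold the interactions of ENSGACG00000015268 and ENSGACG00000013782 and the sex difference of ENSGACG00000017063 (adjusted p from 0.702 to 0.0321). It did the same for both minus personal only of ENSGACG00000015268 (adjusted p from 0.649 in limma to 0.0326 in limma-voom). These are not among the values counted above. For the counted values a change of side was unlikely, since their lowest adjusted p in the main test was 0.168 (limma). Sizes could still move in either direction. Using all 29 libraries, both minus neither of ENSGACG00000012624 went from 0.27 to 0.03, and the interaction of ENSGACG00000008574 from -0.54 to -0.81. No paired analysis by replicate number was possible because the labels carry none; father served as the block.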
